A study of Mus musculus with 12 samples.

Results

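The interleukin-6 (IL-6) family was described here by 10 genes of 54232 gene identifiers counted in each library: the cytokine genes Il6, Lif, Osm and Il11, the receptor genes Il6ra, Il6st, Osmr, Lifr and Il11ra1, and Socs3, a feedback inhibitor of the same signal. They were chosen by name, as the best-known ligands of the family with their receptors, with earlier results of these data known. Each was found by its symbol. The 10 genes all passed the filter on low counts. The 12 libraries were made from RNA of dorsal wounds in male C57BLKS/J mice homozygous for the db mutation of the leptin receptor gene Lepr, an obese and diabetic model, so that all groups carry this germline mutation. A punch of 6 mm was made through the full skin at 12 weeks of age, the sample labels give an age of 12.5 weeks, and tissue was taken on day 10. The TD group (5 libraries) wore a Tegaderm film dressing alone, the Strain group (4 libraries) wore a patch that imposed about 30% strain, and the No Strain group (3 libraries) wore a patch without strain. Lean mice and unwounded skin were not analysed here. Strain against No Strain addresses the imposed strain, and each patch group against TD addresses the patch as a whole.

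IL-6 family cytokines signal through receptor complexes that contain gp130, the product of Il6st. IL-6 and IL-11 first bind a private receptor chain and then recruit a pair of gp130 chains, whereas LIF pairs gp130 with LIFR and oncostatin M, in mice, pairs it mainly with OSMR. The complexes activate JAK kinases and STAT3, STAT3 switches on Socs3, and the SOCS3 protein binds gp130 and JAK and shuts the signal down. In wounded skin these cytokines come from leukocytes, keratinocytes, fibroblasts and endothelial cells, and they act on inflammation, keratinocyte migration and repair.

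The libraries held 20354677 to 25059371 counts each, so 3 counts, taken as the floor of detection, were worth at most 0.147 CPM (counts scaled to a common library total). Fibroblast and basal keratinocyte markers were present in every library, with list sums of 23196 to 41750 CPM over 8 genes and 4472 to 11058 CPM over 7 genes. Skeletal muscle markers, summed over 20 genes, were at 7680 to 18111 CPM in TD, 3410 to 6395 CPM in Strain and 4811 to 10552 CPM in No Strain, so TD and Strain did not overlap. Neutrophil markers, summed over 10 genes, were at 365 to 1570 CPM in TD, 741 to 8517 CPM in Strain and 1813 to 5029 CPM in No Strain. S100a8 and S100a9 made up most of these sums, with means of 1688 and 2207 CPM in Strain and 1424 and 1920 CPM in No Strain. Of the 10 genes, 5 had a higher fitted level in Strain than in No Strain. Cxcr2, Ly6g and Retnlg were lower in Strain without overlap, where 5.62% of all genes showed no overlap, and 0 of the 10 passed after adjustment. Of these neutrophil genes, Ly6g and Ngp had 0 counts in 1 and 2 TD libraries, and no marker was at 0 throughout. Sample titles carry numbers of 1 to 6 for TD libraries and of 7 to 15 for patch libraries, so whatever goes with that number and the patch cannot be told apart. P-values measure the spread between these libraries, since the labels do not say whether wounds came from separate mice.

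The stretches before the RefSeq start of Il6, Lif and Socs3 are shown because these genes, with Osm, were the members higher in No Strain wounds. They come from RefSeq on GRCm38.p6, read 5′ to 3′ along the gene and without any annotated exon: chr5:30012864-30013113 on the plus strand for Il6, chr11:4257318-4257556 on the plus strand for Lif and chr11:117969452-117969616 on the minus strand for Socs3, the last of which lies inside the longer span that GENCODE gives the gene. Capitals mark matches, on either strand, to TTCNNNGAA (the STAT motif), TTGCNNAA (C/EBP), TGANTCA (AP-1) or a loose NF-kB motif (GGG, any 5 bases, CC), and overlapping matches run together.
Il6: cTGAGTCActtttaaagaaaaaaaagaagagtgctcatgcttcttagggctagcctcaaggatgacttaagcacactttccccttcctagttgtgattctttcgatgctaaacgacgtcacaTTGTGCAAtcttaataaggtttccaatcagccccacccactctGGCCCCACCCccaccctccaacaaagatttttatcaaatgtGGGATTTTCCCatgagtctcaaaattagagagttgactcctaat
Lif: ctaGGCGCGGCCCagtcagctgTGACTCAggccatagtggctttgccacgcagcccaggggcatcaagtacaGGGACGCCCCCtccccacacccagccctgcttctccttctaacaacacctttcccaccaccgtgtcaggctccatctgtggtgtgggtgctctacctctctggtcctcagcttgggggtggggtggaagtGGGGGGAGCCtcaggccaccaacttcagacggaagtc
Socs3: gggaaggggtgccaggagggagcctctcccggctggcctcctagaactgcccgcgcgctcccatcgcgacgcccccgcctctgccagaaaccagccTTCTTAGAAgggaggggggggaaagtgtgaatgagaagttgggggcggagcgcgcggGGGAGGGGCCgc
The Il6 stretch held 1 AP-1 match, 1 C/EBP match and 3 NF-kB matches, of which 2 overlap on opposite strands. The Lif stretch held 1 AP-1 match and 5 NF-kB matches, 3 of them overlapping. The Socs3 stretch held the STAT match TTCTTAGAA, which starts 154 bases before the annotated start, and 1 NF-kB match. Windows of 250 bases before the start were available for 9 of the 10 members, 12 windows in all. The STAT letters were in 1 of these 12 windows and in 7.02% of all 32851 windows. The C/EBP letters were in 1 of 12 and 9.56%, the AP-1 letters in 3 of 12 and 6.75%, and the short NF-kB letters in 8 of 12 and 45.8%. These matches describe letters in a window and say nothing of binding.

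Per kilobase of exon, receptors and feedback exceeded the cytokines in TD wounds. In FPKM (CPM divided by exon length in kilobases), Il6st led in TD at 33.1, with libraries from 31.5 to 36.7. Il11ra1 at 25.0 ± 1.00 (SD, n = 5) and Socs3 at 23.9 ± 3.57 (SD, n = 5) came next, and their libraries overlapped each other. Il6ra, Osmr and Lifr followed at 9.31, 6.83 and 6.44 FPKM, and Osmr overlapped both of its neighbours. The cytokines came last, with Osm at 1.73 and Lif at 1.48 FPKM, which overlapped, and Il6 at 0.671 and Il11 at 0.603 FPKM, which overlapped as well. In both patch groups Socs3 stood first, at 42.7 ± 12.5 (SD, n = 4) FPKM in Strain and 67.7 ± 29.2 (SD, n = 3) in No Strain. Socs3 overlapped Il6st, the second, in Strain but not in No Strain. Osm reached 4.59 ± 1.67 (SD, n = 4) FPKM in Strain and 6.48 ± 2.15 (SD, n = 3) in No Strain, where its libraries overlapped those of its neighbours Il6ra and Lifr. Il11 was last in each group.

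**Figure D1:**
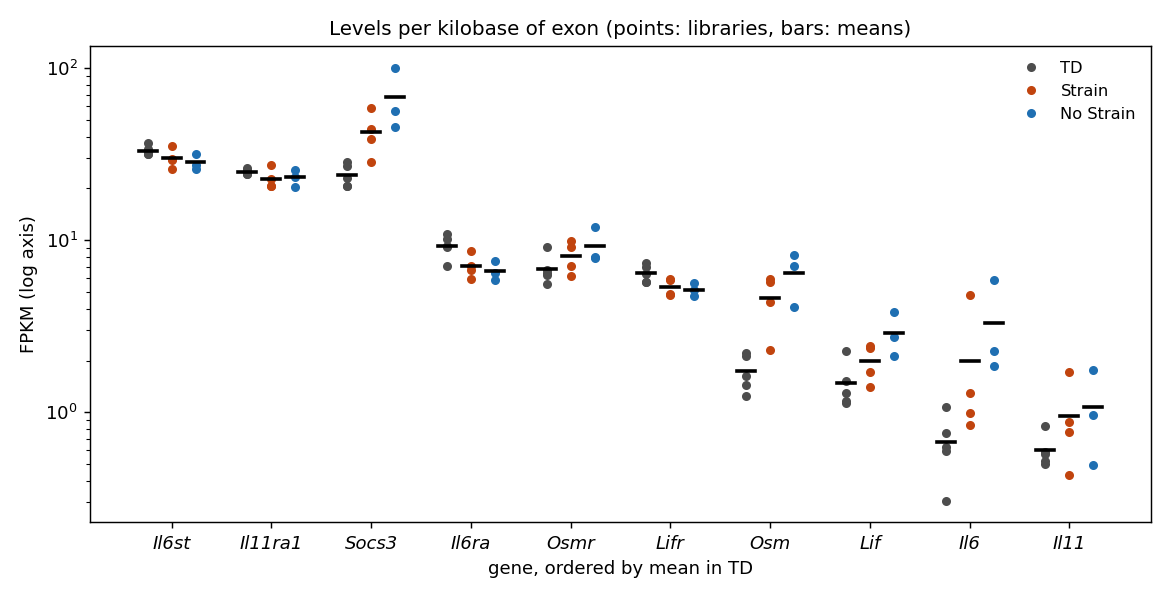
Levels of the 10 genes in FPKM on a log axis, ordered by their mean in TD. Points are libraries and bars are group means; Socs3 passes Il6st in both patch groups, and Osm approaches the receptors in No Strain.

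Among the cytokines, Osm and Il6 gave the largest fold changes against TD, and Osm passed the test in both comparisons. Osm, the oncostatin M gene at chr11:4236420-4241026, lies close to Lif on the same strand and is made chiefly by neutrophils, macrophages and T cells. Its level was 3.29, 5.05, 4.82, 2.83 and 3.68 CPM in TD, 9.94, 13.0, 5.26 and 13.5 CPM in Strain, and 9.27, 16.2 and 18.7 CPM in No Strain. Every patch library was above every TD library, although Strain replicate 3 exceeded the highest TD library only narrowly. Osm rose 2.64-fold in Strain against TD (log2 fold change 1.40, SE 0.30, adjusted p = 0.0155) and 3.74-fold in No Strain against TD (1.90, SE 0.31, adjusted p = 0.00424). These p-values are from edgeR's quasi-likelihood test with Benjamini-Hochberg adjustment over 18618 genes, as are the other adjusted p-values here. Without Strain replicate 2 the first call was lost (adjusted p = 0.0517 in the same edgeR test). With the mean log2 CPM of the muscle markers added to the fit, the log2 fold changes were 1.36 (adjusted p = 0.497) and 1.88 (adjusted p = 0.0483). The summed muscle markers did not overlap between TD and Strain, so this covariate is tied to the group in that comparison. A Strain call lost with it, here and below, says little of any single gene. In whole tissue, more cells that make a transcript and more transcript per cell cannot be told apart.

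Il6 encodes the founding cytokine of the family and lies at chr5:30013114-30019981. It was at 2.59, 1.44, 1.83, 1.53 and 0.745 CPM in TD, 2.04, 11.7, 3.15 and 2.40 CPM in Strain, and 4.50, 5.49 and 14.2 CPM in No Strain. All 3 No Strain libraries exceeded all TD libraries, whereas the Strain libraries overlapped TD and were spread by the single high value of replicate 2. Il6 rose 4.92-fold in No Strain against TD (log2 fold change 2.30, SE 0.60, edgeR adjusted p = 0.0249), a call that was lost in 3 of the 12 fits that left out 1 library, with 1.61 and an adjusted p of 0.130 without No Strain replicate 3. With the muscle covariate the value was 3.37 (edgeR adjusted p = 0.0369). In Strain against TD its log2 fold change was 1.56 (SE 0.57, edgeR adjusted p = 0.0950), and it was 0.63 without Strain replicate 2 and 3.48 (SE 1.03, adjusted p = 0.350) with the muscle covariate. DESeq2 called this difference (1.55, adjusted p = 0.0307). Raw counts behind these values were 17 to 305 per library.

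Lif, at chr11:4257557-4272514, encodes leukemia inhibitory factor, which keratinocytes and stromal cells release after injury. Its level was 9.87, 5.63, 5.06, 6.62 and 4.95 CPM in TD, 10.2, 10.6, 6.07 and 7.43 CPM in Strain, and 16.7, 9.22 and 11.9 CPM in No Strain. TD replicate 1 exceeded the lowest library of each patch group, so the groups overlapped. Lif rose 1.96-fold in No Strain against TD (log2 fold change 0.97, SE 0.27, edgeR adjusted p = 0.0304) and did not pass in Strain against TD (0.42, SE 0.25, adjusted p = 0.299). The call was lost in 6 of the 12 fits that left out 1 library, with an edgeR adjusted p of up to 0.136 without No Strain replicate 1.

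Il11, at chr7:4772373-4782859, encodes a cytokine made mainly by fibroblasts and other stromal cells. It was the least abundant member, at 1.04 to 1.73 CPM in TD, 0.900 to 3.55 CPM in Strain and 1.04 to 3.69 CPM in No Strain. The groups overlapped, and neither comparison with TD passed (log2 fold change 0.64, SE 0.41, and 0.84, SE 0.44, with edgeR adjusted p of 0.323 and 0.205).

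**Figure D2:**
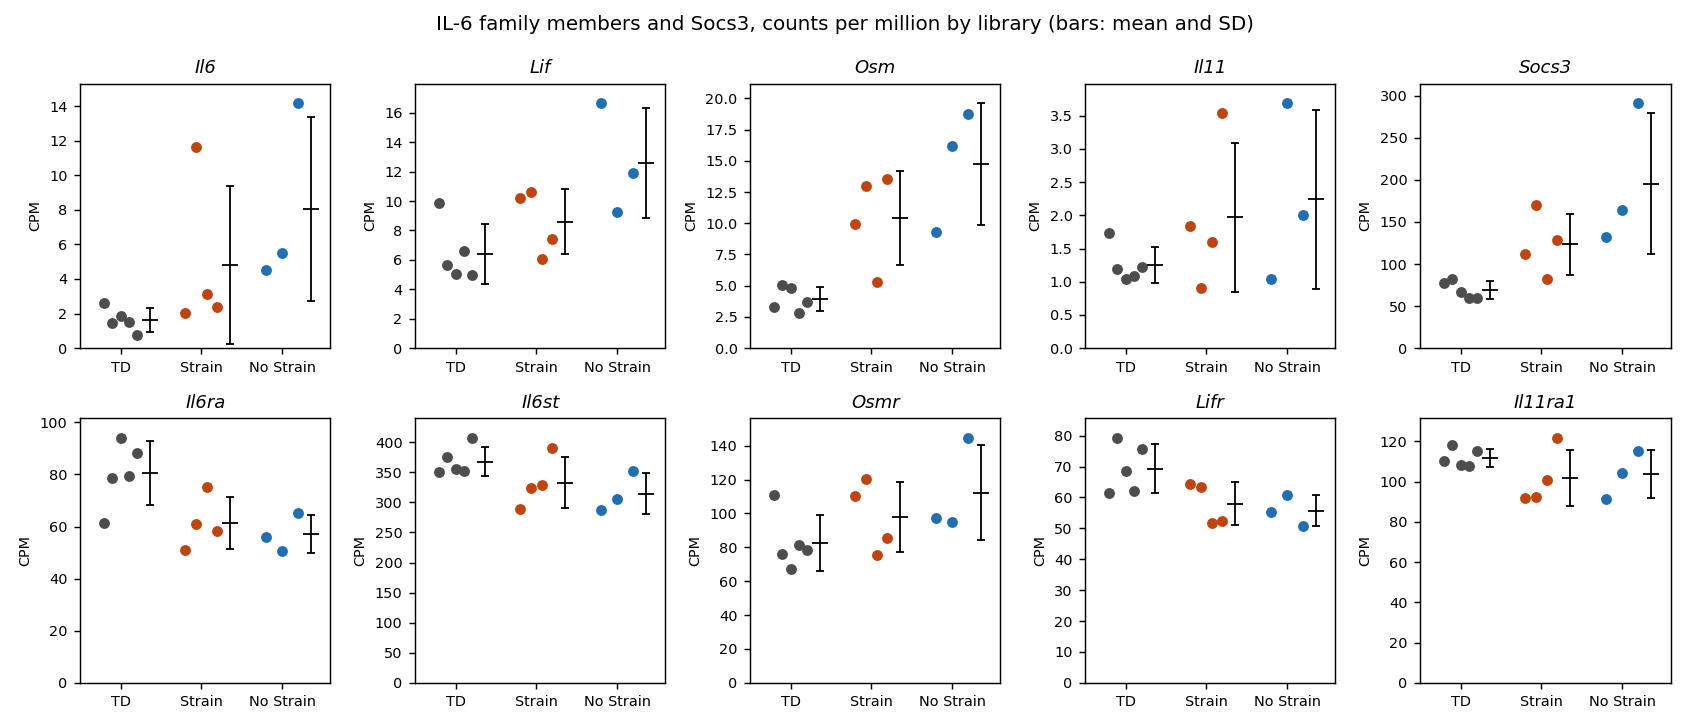
CPM of each member in every library, with the mean and SD of each group beside the points; each axis starts at 0. Osm and Socs3 are higher in every patch library than in every TD library, and the single high Il6 value in Strain is replicate 2.

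None of the 5 receptor genes passed in Strain against TD, where 12.6% of all genes passed, and 1 of 5 fell in No Strain against TD, where 17.8% passed and 8.40% fell. A count of 1 in 5 is near the share of all genes that passed. That gene was Il6ra, at chr3:89864059-89913196, which encodes the private IL-6 receptor chain found chiefly on leukocytes and hepatocytes. Il6ra was at 61.5, 78.6, 94.0, 79.6 and 88.4 CPM in TD, 51.1, 61.1, 75.1 and 58.3 CPM in Strain, and 55.9, 50.8 and 65.1 CPM in No Strain. TD replicate 1 lay among the patch libraries, and the other 4 TD libraries were above every patch library. The log2 fold change was -0.49 (SE 0.15, edgeR adjusted p = 0.0434) in No Strain and -0.39 (SE 0.14, edgeR adjusted p = 0.0824) in Strain. The No Strain call held in 3 of the 12 fits that left out 1 library, with an adjusted p of up to 0.136 in edgeR without No Strain replicate 2. Of the exon bases of Il6ra, 242 overlap the antisense gene Gm42809, whose reads cannot be told apart where strand was not used in counting.

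Il6st, at chr13:112464070-112510086, ranged from 350 to 407 CPM in TD, 288 to 390 CPM in Strain and 287 to 352 CPM in No Strain. Its log2 fold changes were -0.14 (edgeR adjusted p = 0.338) in Strain and -0.23 (edgeR adjusted p = 0.151) in No Strain. Osmr (chr15:6813577-6874969), the oncostatin M chain, and Lifr (chr15:7090614-7197489), the LIF chain, lie close together on chromosome 15, on opposite strands. Osmr ranged from 67.1 to 110.9 CPM in TD, 75.5 to 120.2 CPM in Strain and 95.2 to 145 CPM in No Strain, and its log2 fold changes were 0.24 (adjusted p = 0.412 in edgeR) and 0.44 (adjusted p = 0.147). Lifr ranged from 61.3 to 79.2 CPM in TD, 51.7 to 64.5 CPM in Strain and 50.9 to 60.9 CPM in No Strain. The No Strain libraries were below all TD libraries for Lifr, and its log2 fold changes were -0.26 (edgeR adjusted p = 0.116) and -0.32 (adjusted p = 0.0699).

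OSMR and LIFR both pair with gp130, and their ratio within a library was also examined, a choice made after their values were seen. The log2 ratio of Osmr to Lifr counts averaged 0.24 in TD (SD 0.39, n = 5), 0.74 in Strain (SD 0.16, n = 4) and 0.99 in No Strain (SD 0.46, n = 3). The differences from TD, 0.50 and 0.75, did not pass a two-sided exact permutation test (exact p = 0.0635 and 0.0714, each 0.214 after adjustment over 6 ratio tests). The smallest p that these tests allow is 0.00794 for Strain and 0.0179 for No Strain. The log2 ratio of Il6ra to Il6st was lower by 0.24 in Strain and by 0.25 in No Strain than in TD (exact permutation p = 0.183 and 0.125). TD replicate 1 had the highest Osmr to Lifr ratio and the lowest Il6ra to Il6st ratio of the 5 TD libraries.

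Il11ra1, at chr4:41699989-41769474, encodes the private IL-11 chain and ranged from 108 to 118 CPM in TD, 91.9 to 122 CPM in Strain and 91.2 to 115.0 CPM in No Strain. Its log2 fold changes were -0.14 and -0.11 (edgeR adjusted p = 0.346 and 0.469). The value is uncertain, since near-identical copies exist and the rule for reads that match several genes is not given in the sources used here. The copy Il11ra2 had 0 to 3 counts per library.

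Socs3, at chr11:117966079-117970047, was the member with the highest level per length in the patch wounds. Its level was 77.8, 81.9, 66.5, 59.4 and 59.8 CPM in TD, 112, 170, 82.7 and 129 CPM in Strain, and 132, 164 and 291 CPM in No Strain. The lowest patch library, Strain replicate 3, was just above the highest TD library. Socs3 rose 2.83-fold in No Strain against TD (log2 fold change 1.50, SE 0.26, edgeR adjusted p = 0.00485), and this call held in all 12 fits that left out 1 library. It rose 1.79-fold in Strain against TD (0.84, SE 0.24, edgeR adjusted p = 0.0445), a call that was lost in 9 of the 12 such fits, with an adjusted p of up to 0.153 in edgeR without Strain replicate 2. With the muscle covariate the log2 fold changes were 1.72 (edgeR adjusted p = 0.0300) in No Strain and 1.26 (adjusted p = 0.430) in Strain.

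Counted together, 2 of the 10 members passed in Strain against TD, both higher, where 12.6% of all genes tested passed (6.20% higher and 6.41% lower). In No Strain against TD 5 of 10 passed, 4 higher and 1 lower, where 17.8% of all genes passed (9.35% higher and 8.40% lower). Libraries did not overlap for 2 members in Strain against TD, where 14.6% of all genes showed no overlap, and for 4 members in No Strain against TD, where the share was 26.7%. The median log2 fold change of the members was 0.33 in Strain and 0.64 in No Strain, beside 0.02 and 0.00 over all genes tested. Both comparisons use the same TD libraries. With the title letter as a covariate, 0 members passed in Strain and 2, Osm and Socs3, in No Strain, and with the muscle covariate 0 and 3 did, the 3 being Il6, Osm and Socs3. Of all genes, 798 passed in Strain and 2145 in No Strain with the letter, and 1 and 696 with the muscle covariate. The loss of Strain calls with the muscle covariate was thus shared by nearly all genes and is not particular to the members. Neutrophil markers also differed from TD, with 8 of 10 higher in Strain and 6 of 10 in No Strain, as did T cell markers, with 4 and 3 of 8 higher. Macrophage markers were higher for 1 of 10 in each comparison, and 0 of 7 mast cell markers passed in either. Of 8 fibroblast markers, 0 passed in Strain and 1, lower, in No Strain, and of 7 basal keratinocyte markers 2 and 3 were lower. Endothelial markers were higher for 4 of 7 in each comparison, with list sums of 402 to 516 CPM in TD, 508 to 737 CPM in Strain and 586 to 665 CPM in No Strain. Of 6 markers of wound keratinocytes, 2, Krt6b and Stfa1, were higher in each, and Krt6a, Krt16, Krt17 and Sprr1b passed in neither. The sums of the 6 were 2666 to 4041 CPM in TD, 3687 to 11012 CPM in Strain and 3481 to 11285 CPM in No Strain. Of 19 muscle markers tested, 16 were lower in Strain and 5 in No Strain, and of 7 adipocyte markers 4 and 6 were lower. The part of neutrophils, T cells, macrophages, mast cells, fibroblasts, endothelial cells, keratinocytes and adipocytes in the members' differences was not tested.

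**Figure D3:**
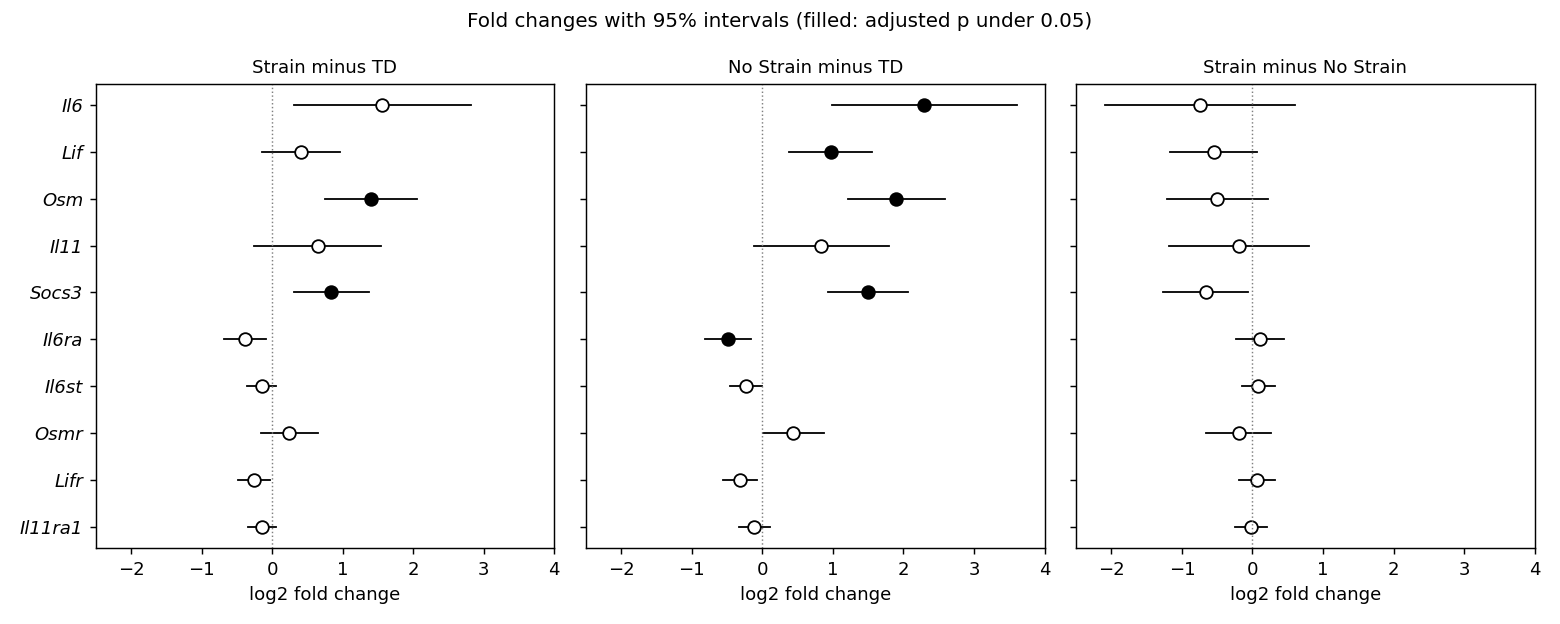
Log2 fold changes of the 10 members with 95% intervals from the edgeR fit, in 3 comparisons. Filled points passed an adjusted p of 0.05: Osm and Socs3 in Strain minus TD; Il6, Lif, Osm, Socs3 and, below 0, Il6ra in No Strain minus TD; none in Strain minus No Strain.

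Between the patch groups, which addresses strain itself, 0 of the 10 members passed, and 0% of the 18618 genes did in edgeR's quasi-likelihood test. Without adjustment, 1045 genes (5.61%) had p under 0.05, of which Socs3 was the only member, and DESeq2 called 33 genes, no member among them. The log2 fold change of Socs3, Strain minus No Strain, was -0.66 (95% interval -1.27 to -0.06, edgeR adjusted p = 0.872). The 4 cytokines had log2 fold changes of -0.74 for Il6 (95% interval -2.09 to 0.61), -0.55 for Lif (-1.17 to 0.07), -0.50 for Osm (-1.22 to 0.22) and -0.19 for Il11 (-1.19 to 0.80). That of Il6 ran from -1.67 without Strain replicate 2 to -0.053 without No Strain replicate 3. The receptor genes lay between -0.20 for Osmr and 0.10 for Il6ra. The intervals leave room for differences in either direction for each member except Socs3, and every member's libraries overlapped between the patch groups, where 5.62% of all genes showed no overlap. A larger fold change in No Strain than in Strain against TD is therefore not shown for any member.

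The other genes of the pathway were taken from 5 lists of 59 genes, of which 55 were tested. In Strain against TD 17 of 55 passed, 13 higher and 4 lower, and in No Strain against TD 20 of 55, 18 higher and 2 lower. These are 30.9% and 36.4% of the tested pathway genes, beside 12.6% and 17.8% of all genes. The median log2 fold changes were 0.26 and 0.37, beside 0.02 and 0.00 over all genes. Between the patch groups 0 of 55 passed. With the muscle covariate the counts were 0 in Strain and 9 in No Strain, beside 1 and 696 of all genes.

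Of the wider family, 8 of 12 genes were tested, and the gene that moved farthest was a receptor of the same complex as Osmr. Il31ra encodes the chain that pairs with OSMR to bind interleukin-31, a cytokine of T cells known for causing itch. It was at 8.60, 5.22, 15.2, 7.39 and 5.83 CPM in TD, 0.894, 1.31, 3.58 and 1.15 CPM in Strain, and 0.900, 1.37 and 0.372 CPM in No Strain. Every patch library was below every TD library. Il31ra fell by 2.26 on the log2 scale in Strain (SE 0.48, edgeR adjusted p = 0.0158) and by 3.25 in No Strain (SE 0.59, edgeR adjusted p = 0.00582). The Strain call was lost without Strain replicate 2 (edgeR adjusted p = 0.0533). With the muscle covariate the values were -1.16 (adjusted p = 0.642 in edgeR) and -2.44 (adjusted p = 0.0875), so both calls were lost. The ligand gene Il31 had 0 counts in each TD library and was not tested. It reached at most 0.039 CPM in Strain and 0.045 CPM in No Strain, below the floor of detection. The cytokine genes Clcf1 and Ebi3 rose in No Strain (log2 fold change 0.52 and 0.94, edgeR adjusted p = 0.00783 and 0.0374), and the cytokine gene Ctf1 fell in Strain (-0.73, edgeR adjusted p = 0.0465). When 1 library was left out, these calls held in 12 fits of 12 for Clcf1, 6 for Ebi3 and 2 for Ctf1. With the muscle covariate none of the 3 passed. Against TD in the other patch group, Clcf1, Ebi3 and Ctf1 were at 0.32, 0.63 and -0.61 (edgeR adjusted p = 0.0502, 0.132 and 0.0917). Other annotated genes share 311 of the 3806 exon bases of Clcf1 and 270 of the 1154 of Ebi3.

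**Figure D4:**
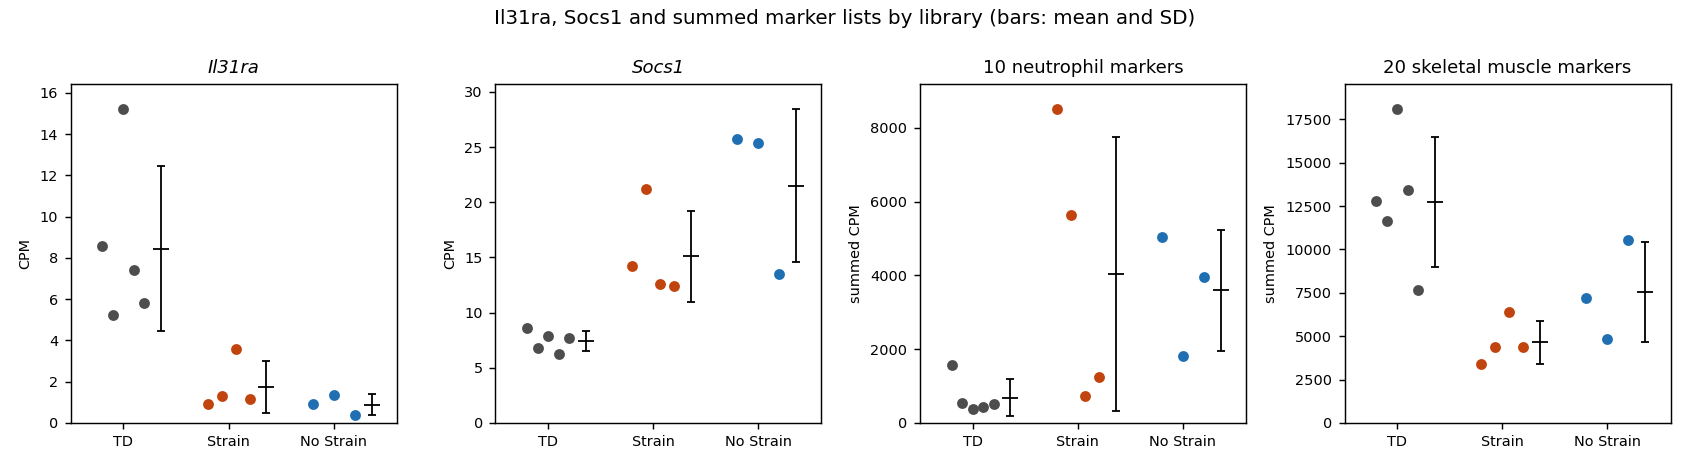
Il31ra and Socs1 in CPM, and the summed CPM of 10 neutrophil and 20 skeletal muscle markers, in every library with group means and SD. Axes start at 0, and S100a8 and S100a9 make up most of the neutrophil sum. Il31ra is lower and Socs1 higher in each patch library than in each TD library, and the muscle sum of each Strain library is below that of each TD library.

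Of 12 genes that relay the signal, 2 (16.7%) passed in each comparison, near the 12.6% in Strain and 17.8% in No Strain of all genes. Jak2, a kinase bound to gp130, rose in Strain (log2 fold change 0.34, edgeR adjusted p = 0.0494) and in No Strain (0.54, edgeR adjusted p = 0.00916). The Strain call held in 3 of the 12 fits that left out 1 library and the No Strain call in all 12. Stat3, the main transcription factor of the pathway, rose in No Strain by 0.41, with libraries at 303 to 375 CPM beside 237 to 276 CPM in TD (edgeR adjusted p = 0.0378), a call that held in 6 of the 12 such fits. Its value in Strain, 0.21, did not pass (edgeR adjusted p = 0.241). Ptpn11, which encodes the phosphatase SHP2 that docks at the same gp130 site as SOCS3, fell by 0.20 in Strain (edgeR adjusted p = 0.0274), which held in 7 of the 12 fits. Its value in No Strain, -0.12, did not pass (edgeR adjusted p = 0.164).

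Of 8 further negative regulators, 3 rose in both comparisons and none fell, where 6.20% of all genes rose in Strain and 9.35% in No Strain. Socs1, a relative of Socs3 that blocks JAK kinases, was at 6.26 to 8.56 CPM in TD, 12.4 to 21.2 CPM in Strain and 13.5 to 25.7 CPM in No Strain. Each patch group was above TD without overlap, and the patch groups overlapped each other. Socs1 rose 2.03-fold in Strain (edgeR adjusted p = 0.0143) and 2.89-fold in No Strain (edgeR adjusted p = 0.00276), and both calls held in all 12 fits that left out 1 library. With the muscle covariate both were lost, at log2 fold changes of 0.72 (edgeR adjusted p = 0.586) and 1.34 (adjusted p = 0.0533), and with the title letter the Strain call was lost (adjusted p = 0.0556). The phosphatase genes Ptpn1 and Ptpn2, which act on JAK and STAT proteins, rose by 0.41 and 0.37 in Strain and by 0.67 and 0.52 in No Strain on the log2 scale (edgeR adjusted p between 0.00399 and 0.0296). With 1 library left out, their Strain calls held in 7 and 6 of 12 fits and their No Strain calls in all 12. Of 4 genes for shedding of the IL-6 receptor, 2 passed in Strain and 1 in No Strain, where 12.6% and 17.8% of all genes passed. The protease gene Adam17 rose in Strain (0.41, edgeR adjusted p = 0.0309, held in 7 of 12 fits that left out 1 library). Its value in No Strain was close, at 0.36, and did not pass (edgeR adjusted p = 0.0537). Rhbdf1, which encodes a partner that carries ADAM17 to the cell surface, fell in Strain (-0.24, edgeR adjusted p = 0.0236, or 0.0637 without Strain replicate 2) and in No Strain (-0.34, edgeR adjusted p = 0.00611).

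Of 23 genes known to respond to STAT3, 8 rose in Strain and 11 in No Strain, and none fell in either, where 6.20% and 9.35% of all genes rose. The median log2 fold change was 0.41 in Strain and 0.81 in No Strain, beside 0.02 and 0.00 over all genes. Hif1a, which encodes a transcription factor of the hypoxia response, rose by 0.78 in Strain and 0.98 in No Strain (edgeR adjusted p = 0.00768 and 0.00272). Lcn2, which encodes an iron-binding protein of neutrophils and keratinocytes, rose 8.79-fold in Strain (edgeR adjusted p = 0.0200), with 39.5 to 324 CPM in Strain against 9.95 to 50.4 CPM in TD, so the groups overlapped. Its log2 fold change of 3.14 in Strain was 3.81 without TD replicate 1. That call was lost in 2 of 12 fits that left out 1 library, with 2.66 and an edgeR adjusted p of 0.0633 without Strain replicate 2. In No Strain Lcn2 rose 11.3-fold (edgeR adjusted p = 0.0115), with every library above every TD library. Batf, a transcription factor gene of lymphocytes and myeloid cells, rose by 0.96 in Strain (edgeR adjusted p = 0.0194), a call lost without Strain replicate 2 (adjusted p = 0.0684). Batf also rose in No Strain, by 1.19 (edgeR adjusted p = 0.00783). Bcl3 and Junb, which encode a co-regulator of NF-kB and a subunit of AP-1, rose by 0.98 and 0.81 in No Strain (edgeR adjusted p = 0.00273 and 0.00305). In Strain Bcl3 rose by 0.53 (edgeR adjusted p = 0.0272), and Junb did not pass (0.36, edgeR adjusted p = 0.0588). Many of these genes also respond to other signals, so the list is not specific to gp130.

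**Figure D5:**
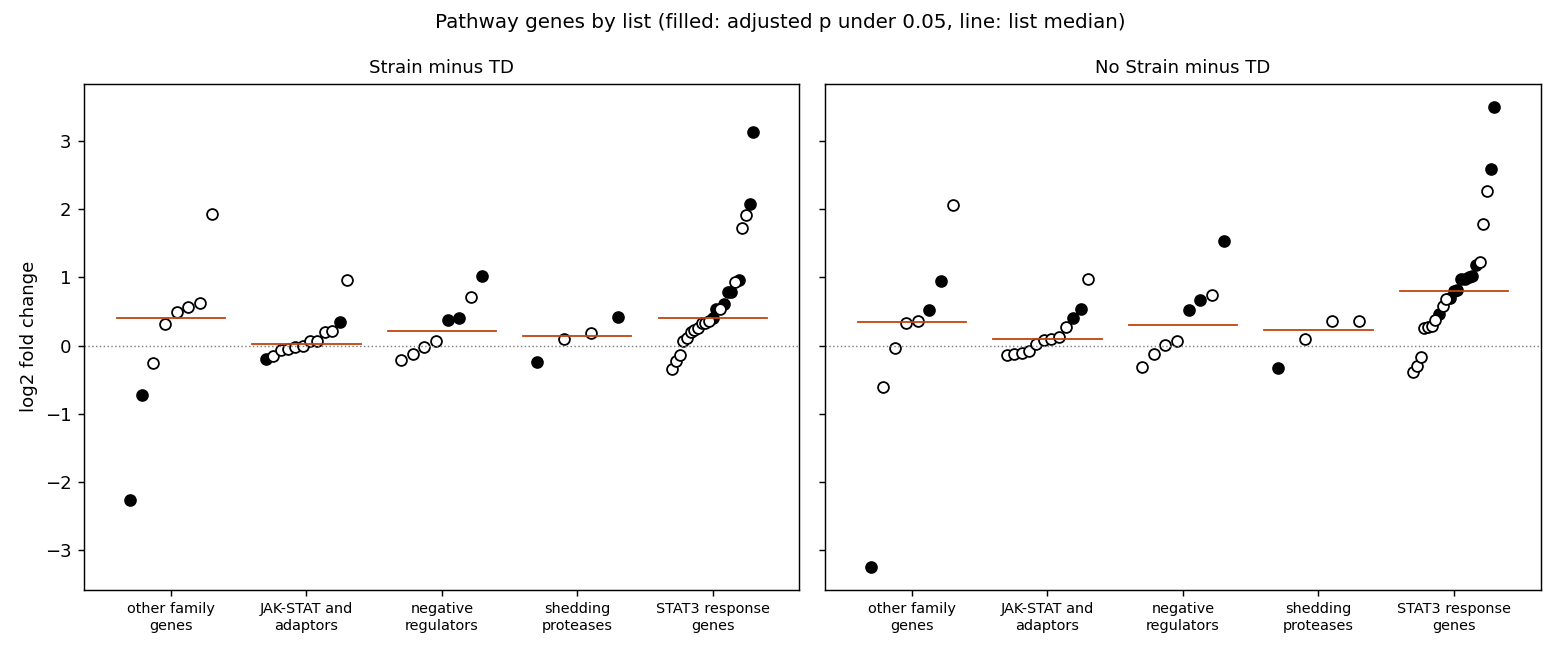
Log2 fold changes against TD of the 55 tested pathway genes, by list and in order within each list. Filled points passed an adjusted p of 0.05 and lines are list medians; the lowest point in each panel is Il31ra, and the highest is Lcn2.

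The genes most like a member were those whose log2 CPM, centred on its mean over the 12 libraries, had the smallest root mean square difference from the member's among 15676 genes with a mean of at least 1 CPM. For Osm these were Hdc, the histidine decarboxylase that makes histamine (difference 0.267), Srgn, the serglycin of leukocyte granules (0.318), and Arg2, a mitochondrial arginase (0.321). For Socs3 they were Vipr2, a receptor for vasoactive intestinal peptide (0.200), Srgn (0.233) and Sod2, the mitochondrial superoxide dismutase (0.242). Lif was nearest to Ptges, a prostaglandin E synthase (0.207), Gsto1 (0.229) and Id1 (0.247). For Il6 the nearest were Klra17 (0.453), the secreted pentraxin gene Ptx3 (0.538) and Serpina3g (0.555), and for Il11 Syt17 (0.307), Rtl1 (0.330) and Pcdhb3 (0.330). For scale, the members themselves varied about their own means by 0.901 for Osm, 0.674 for Socs3, 0.518 for Lif, 1.16 for Il6 and 0.616 for Il11. These differences are descriptions over 12 libraries that share the same group structure.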

How the data were processed

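RNA was measured by poly(A)-selected sequencing, and the deposited files hold raw counts per gene for each of the 12 libraries, per the file headers. The submitters' processing notes name bcl2fastq 2.17, FastQC, cutadapt, STAR, featureCounts, DESeq2 and the build GRCm38. Which annotation release was counted, whether strand was used and how multi-mapping reads were treated is not given in the sources used here. Groups came from the group label of each sample. Symbols matched 54079 of 54232 identifiers in GENCODE M21, which also gave coordinates on GRCm38, and exon lengths for FPKM.

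Genes were kept by filterByExpr (minimum count 10, minimum total 15), which left 18618. All 12 libraries entered 1 robust edgeR 4.0.16 quasi-likelihood fit with TMM scaling in R 4.3.3, and Benjamini-Hochberg adjustment covered all genes tested, with a threshold of 0.05. CPM used TMM-scaled totals, and log2 CPM added a prior count of 2. Each standard error is the fold change divided by the root of its F statistic. Log2 ratios of counts were compared by two-sided exact permutation tests. The fit was tested on simulated counts. No library was a duplicate of another in its group, as the 19 pairs of libraries of 1 group gave a chi-square of 8.80 to 68.1 per degree of freedom. Pairs from different groups were not checked. Counting floors cover counting error only.

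The members and gene lists were chosen with earlier results of these data known. In each comparison with TD, the genes named from a pathway list were those that passed with the smallest p, at most 3 per direction. Also named were the 3 genes most like each cytokine and Socs3. Genes at 0 counts and the copy Il11ra2 were named after their values were seen. Alternatives were DESeq2 size factors, library totals, DESeq2 1.42.0, limma 3.58.1 voom with sample weights, no filter, fits on only the groups compared, the title letter (L or R, meaning not stated) or the muscle list as a covariate, and leaving out each library.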

Additional observations from a re-analysis of the deposited data

How the results depend on the processing

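The count of members past the threshold in Strain against TD, 2, was 4 with DESeq2, 1 with limma-voom, 1 without the filter, 0 with the title letter and 0 with the muscle list as a covariate, and 0 to 3 when 1 library was left out, with the 0 reached without Strain replicate 2. For pathway genes the count of 17 became 9 without the filter, 4 with the letter and 0 with the muscle list, and 2 (without Strain replicate 2) to 18 with 1 library left out. For all genes 2349 became 1527, 798 and 1 under the same settings, and 882 (without Strain replicate 2) to 2458 with 1 library left out. In No Strain against TD, 5 members became 3 without the filter, 2 with the letter and 3 with the muscle list, and 2 (without TD replicate 2) to 5 with 1 library left out. Pathway genes there went from 20 to 9 with the muscle list, and 14 to 26 with 1 library left out. All genes went from 3305 to 2145 with the letter and 696 with the muscle list, and 1505 (without No Strain replicate 3) to 3415 with 1 library left out. Library totals alone gave 1257 higher and 2046 lower there, beside 1741 and 1564 with TMM, and moved the median of all genes to -0.06. For Strain against No Strain, DESeq2 gave 33 genes in place of 0. The cause was not tested, apart from the larger number of genes tested without the filter, 35687.

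Of 240 member fold changes under settings that keep all 12 libraries, 218 kept direction and side of the threshold, 13 lost the call, 4 gained it and 5 changed sign. The sign changed for Il11 (-0.36) in Strain against TD and for Il6 (0.10) and Lifr (-0.066) in Strain against No Strain with the muscle list, for Osmr in Strain against TD with the letter (-0.0034), and for Il11ra1 in Strain against No Strain with library totals (0.019). None of these 5 values had passed. With 1 library left out, the ranges for Strain against No Strain crossed 0 for Il11 (-0.64 to 0.37), Il6ra (-0.019 to 0.20), Il6st (-0.0033 to 0.17), Osmr (-0.32 to 0.026), Lifr (-0.0024 to 0.12), Il11ra1 (-0.12 to 0.056), and the Osmr to Lifr (-0.42 to 0.0096) and Il6ra to Il6st (-0.088 to 0.12) ratios. Of 192 fold changes of named pathway genes, 154 held and 38 lost the call. No paired analysis was run, because the labels do not say which wounds, if any, came from the same mouse. Depth limits Il11 and Il6 most, with as few as 20 and 17 counts in a library.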
